A study of Homo sapiens with 12 samples.

Results

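The genes described here are 10 cell-surface ligands through which tumour cells address immune cells. They are 8 members of the B7 family (VTCN1, CD274, PDCD1LG2, CD276, CD80, CD86, ICOSLG and HHLA2) and 2 ligands with a related role, CD47 and PVR. Each was found by its symbol in a table of 60591 genes, and all 10 have a row there. The set was chosen by the levels of VTCN1, which changed far more with drug in one of the lines compared here than in the other. The VTCN1 values against T0, between the lines and between the drugs are therefore given as a description with no test. Of the 10 genes, 7 had enough reads to be tested. CD80, CD86 and HHLA2 did not, with at most 1, 2 and 2 reads in any library.

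RNA-seq was performed on PC9 and H1650, both established human non-small cell lung cancer cell lines that carry the same activating deletion in EGFR and are labelled wild-type for genotype. Cells were collected at T0, in 0.1% DMSO at 0 h, or after 36 h with 10 µM erlotinib, a first-generation EGFR inhibitor, or with 0.1 µM osimertinib, a third-generation one. Each of the 6 groups had 2 replicates, which gave 12 libraries with between 17961765 and 26346187 reads assigned to genes. No library of untreated cells at 36 h was analysed here, so the effect of a drug and of 36 h in culture cannot be told apart. Each line is a single line grown alone. The study calls its RNA-seq replicates biological, but the labels do not say whether they were separate cultures, and if they were not, p-values measure only technical spread. Mitochondrial reads made up 4.36% to 5.36% of each T0 library and 5.77% to 7.2% of each treated one, with no overlap, and the part of this in the changes with drug was not tested. Both lines expressed epithelial keratins and adhesion genes, with 7 of 7 epithelial markers read in each and a summed level of 6834 to 10483 normalized CPM in PC9 and 5606 to 9202 in H1650. Markers of lung adenocarcinoma were close to absent (5 genes, 0.454 to 1.94 normalized CPM in PC9 and 0.466 to 1.03 in H1650). Lymphocyte markers (7 genes) summed to 0.416 to 0.79 normalized CPM in PC9 and 0.223 to 0.386 in H1650, and CD3D, CD2 and MS4A1 had no read in either line. Markers of other cell types moved with drug, as did many genes. Of the 19108 genes tested, 32.7% rose with each drug in PC9, and 29.1% fell with erlotinib and 28.7% with osimertinib. In H1650 18.0% rose and 18.5% fell with erlotinib, and 17.8% rose and 17.9% fell with osimertinib. Myeloid markers (6 genes) summed to 4.89 to 6.61 normalized CPM at T0, 9.21 to 10.3 with erlotinib and 22.3 to 23.7 with osimertinib in PC9, and to 54.5 to 59.3, 21.5 to 22.2 and 26.8 to 29.2 in H1650. Of the 3 tested, CSF1R and ITGAM rose with each drug in PC9, while CSF1R fell with each and ITGAM with osimertinib in H1650. LYZ and CD68 had at most 2 and 11 reads in any library. Fibroblast markers (5 genes) summed to 18.4 to 21.1, 20.8 to 24.7 and 37.8 to 45.9 in PC9 and to between 10.1 and 14.8 in H1650, and of the 2 tested, 1 rose with erlotinib and 2 with osimertinib in PC9. Endothelial markers (4 genes) summed to 2.67 to 5.83 in PC9, where of 3 tested 2 rose and 1 fell with each drug, and to 0.193 to 1.78 in H1650, where 1 rose with erlotinib and 2 with osimertinib. The part of these cell types in the results was not tested.

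B7 ligands are membrane proteins that either support or restrain the activation of T cells, and several of them bind receptors of the CD28 and CTLA4 type. CD274 (PD-L1) and PDCD1LG2 (PD-L2) bind the inhibitory receptor PD-1, and antibodies that block this contact are used to treat lung cancer. CD80 and CD86, the classical co-stimulatory ligands, belong mainly to antigen-presenting cells, while CD47 binds SIRPA on macrophages and restrains phagocytosis, and PVR (CD155) binds TIGIT, CD96 and CD226 on T and NK cells.

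Levels below are normalized CPM (reads per gene relative to the scaled library total, by the TMM method) with the SD of 2 libraries. A gene was called where the quasi-likelihood test of edgeR gave it an adjusted p under 0.05. Changes are log2 fold changes, with the standard error (SE) where a test was made.

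The level of VTCN1 (B7-H4, a ligand that restrains T cell activation and is best known from breast and ovarian carcinoma) was far apart in the lines before treatment and within 0.33 on the log2 scale after it. VTCN1 lies on chromosome 1, 117143587 to 117210960, minus strand (GRCh38). The 2 PC9 libraries at T0 held 3 and 9 reads. The PC9 libraries held 1034 and 1363 reads after erlotinib, and 1266 and 1124 after osimertinib. In H1650 there were 643 and 772 reads at T0, 1004 and 1100 after erlotinib, and 1684 and 1631 after osimertinib. PC9 at T0 was thus the one group with almost no VTCN1, and in both lines every treated library lay above every T0 library.

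In CPM, VTCN1 went from 0.298 ± 0.207 (SD, n = 2) at T0 to 49.8 ± 4.88 (SD, n = 2) with erlotinib and 60.8 ± 3.16 (SD, n = 2) with osimertinib in PC9. It went from 29.9 ± 0.144 (SD, n = 2) at T0 to 51.5 ± 0.419 (SD, n = 2) with erlotinib and 76.5 ± 5.47 (SD, n = 2) with osimertinib in H1650. The fold in PC9 rests on 12 reads at T0. Taken from the summed reads it was 167 with erlotinib, with a 95% counting interval of 95.5 to 324, and 202 with osimertinib, with an interval of 116 to 392. These intervals cover counting error only, and the T0 libraries differed from each other: the fitted log2 fold change with erlotinib was 7.35, but 6.78 without PC9 T0 replicate 1 and 8.31 without PC9 T0 replicate 2. With osimertinib it was 7.64, and 7.07 and 8.59 without the same libraries. The corresponding changes in H1650 were 0.79 and 1.36, or ratios of mean CPM of 1.72 and 2.56.

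**Figure D1:**
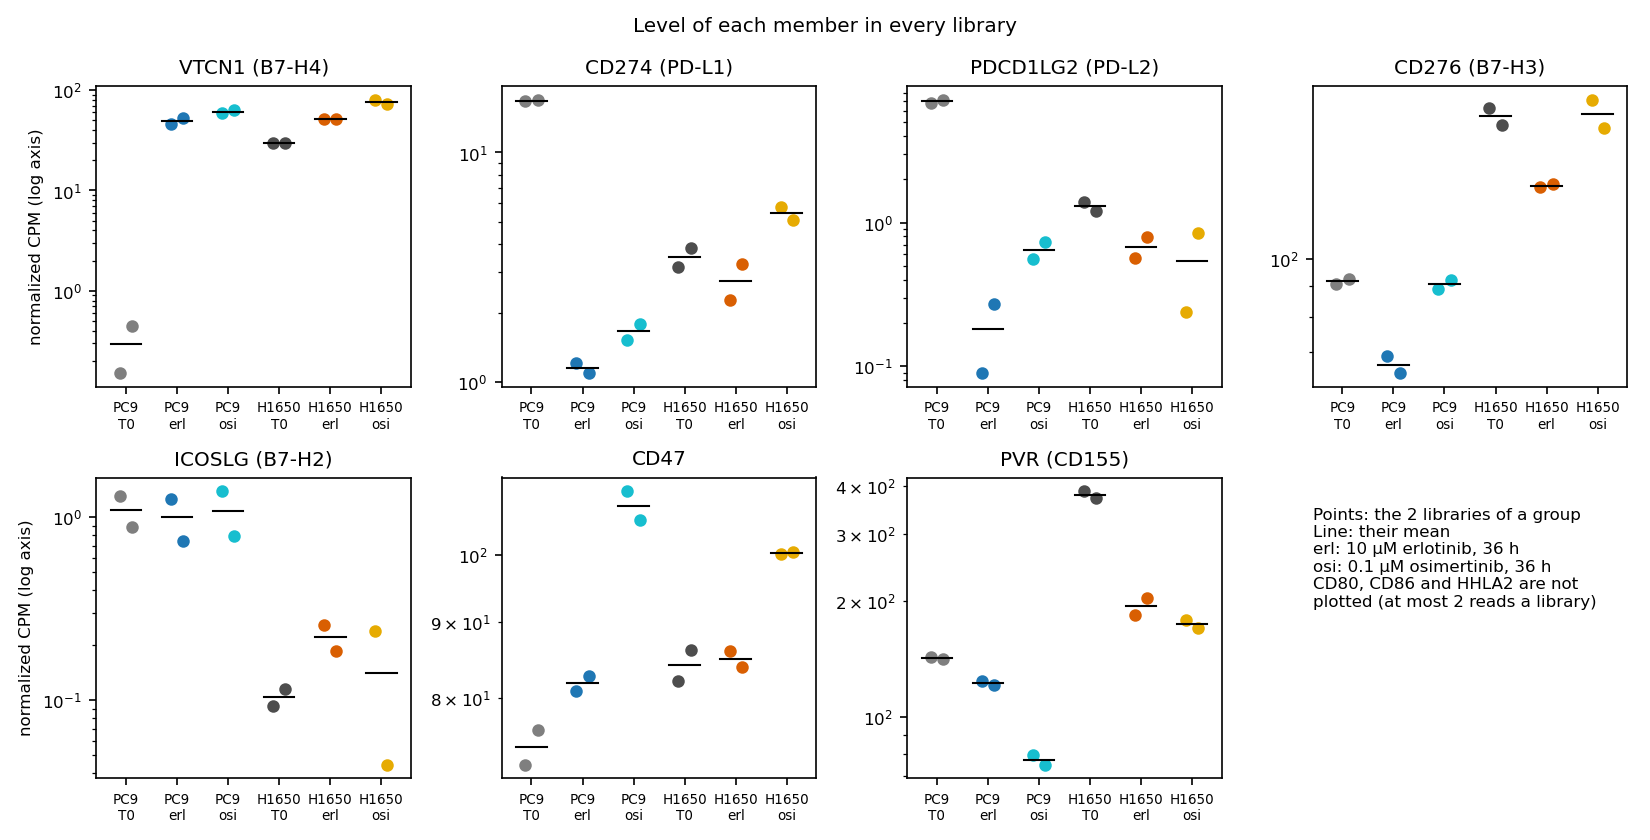
Normalized CPM (log axis, a separate scale for each gene) of the 7 tested genes in each library, by group, where points are the 2 libraries of a group and the line is their mean. VTCN1 was at 0.298 CPM in PC9 at T0 and between 29.9 and 76.5 in the other 5 groups, while CD274 and PDCD1LG2 were highest in PC9 at T0, at 16.8 and 6.96.

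Across the 6 groups VTCN1 was ordered, from high to low, as H1650 osimertinib, PC9 osimertinib, H1650 erlotinib, PC9 erlotinib, H1650 T0 and PC9 T0. The libraries of neighbours in this order did not overlap except for the erlotinib groups of the 2 lines. The gap between the lines was 6.61 on the log2 scale at T0 (H1650 higher) and 0.05 under erlotinib and 0.33 under osimertinib. The difference between the drugs was not itself the reason for the choice of genes. It rests on treated libraries that the choice also used, so its VTCN1 values are given as a description without p-values. VTCN1 was higher with osimertinib than with erlotinib in H1650 by 0.57 and in PC9 by 0.29. The PC9 value was 0.19 without PC9 erlotinib replicate 1, 0.34 without PC9 osimertinib replicate 1 and 0.23 without PC9 osimertinib replicate 2. It was 0.26 with no filter on low counts and 0.27 with one fit per line.

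Genes whose levels closely followed VTCN1 over the 12 libraries included SYT17, CYRIA, ACSF2 and DYNC2H1, with Pearson correlations of log2 CPM from 0.988 to 0.995, where 10293 genes were compared. These points share libraries and depth. PC9 at T0 was the lowest group for VTCN1 and for each of these 4 genes, and correlations without that group were not computed. None of these 4 was among the 5 closest by Spearman rank correlation. SYT17, a member of the synaptotagmin family, was at 8.67 ± 0.999 CPM (SD, n = 2) in PC9 at T0 and at 46.9 ± 1.08 (SD, n = 2) in H1650 at T0, and between 62.3 and 68.5 in the 4 treated groups.

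CD274 (PD-L1) and PDCD1LG2 (PD-L2), the PD-1 ligands, fell strongly in PC9 with both drugs. In H1650, CD274 was not called with erlotinib and rose modestly with osimertinib. The 2 genes are neighbours in band 9p24.1. CD274 lies on chromosome 9, 5450503 to 5470566, and PDCD1LG2 at 5510570 to 5571254, both on the plus strand and 40004 bases apart.

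CD274 had 331 and 344 reads in PC9 at T0, 27 and 28 after erlotinib, and 33 and 32 after osimertinib. H1650 libraries held 68 and 99 reads at T0, 44 and 70 after erlotinib, and 121 and 114 after osimertinib. In PC9 the T0 libraries were far above all treated ones, while in H1650 the erlotinib libraries overlapped those at T0 and the osimertinib libraries lay above both.

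The level of CD274 in PC9 was 16.8 ± 0.207 CPM (SD, n = 2) at T0, 1.15 ± 0.0822 (SD, n = 2) with erlotinib and 1.66 ± 0.189 (SD, n = 2) with osimertinib. Its log2 fold changes were -3.87 with erlotinib (SE 0.225, adjusted p = 1.2e-14) and -3.35 with osimertinib (SE 0.219, adjusted p = 1.5e-13), or falls of 14.6-fold and 10.1-fold in mean CPM. In H1650 the level was 3.50 ± 0.458 (SD, n = 2) at T0, 2.76 ± 0.699 (SD, n = 2) with erlotinib and 5.43 ± 0.493 (SD, n = 2) with osimertinib. The log2 fold change with erlotinib there was -0.34 (SE 0.226, adjusted p = 0.264), and CD274 rose by 0.63 with osimertinib (SE 0.206, adjusted p = 0.0182). That rise was lost without H1650 T0 replicate 1 (0.51, adjusted p = 0.143) or H1650 osimertinib replicate 1 (0.53, adjusted p = 0.131), and with DESeq2 (0.62, adjusted p = 0.0693).

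The difference between the lines, taken as the log2 fold change of H1650 less that of PC9, was 3.53 for CD274 with erlotinib (SE 0.328, adjusted p = 7.3e-10) and 3.97 with osimertinib (SE 0.304, adjusted p = 1.3e-11). The order of the lines turned round: CD274 was lower in H1650 than in PC9 at T0 (log2 difference -2.26, adjusted p = 3.0e-11) and higher in H1650 under erlotinib (1.27, adjusted p = 1.3e-04) and osimertinib (1.71, adjusted p = 3.3e-07). The 2 drugs differed in H1650, where CD274 was higher with osimertinib by 0.96 (SE 0.217, adjusted p = 0.00387). This was lost without H1650 erlotinib replicate 1 (0.73, adjusted p = 0.103) or H1650 osimertinib replicate 1 (0.87, adjusted p = 0.0574). In PC9 the difference was 0.52 (SE 0.295, adjusted p = 0.264).

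PDCD1LG2 had 134 and 145 reads in PC9 at T0, 2 and 7 after erlotinib, and 12 and 13 after osimertinib. In H1650 it had 30 and 31 reads at T0, 11 and 17 after erlotinib, and 5 and 19 after osimertinib. As for CD274, PC9 at T0 stood above every other group, and the treated groups rest on few reads.

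PDCD1LG2 fell in PC9 from 6.96 ± 0.284 CPM (SD, n = 2) to 0.181 ± 0.13 (SD, n = 2) with erlotinib and 0.642 ± 0.123 (SD, n = 2) with osimertinib. The log2 fold changes were -5.17 (SE 0.46, adjusted p = 1.0e-10) and -3.44 (SE 0.392, adjusted p = 1.2e-08). The size of the fall with erlotinib depended on the library, at -4.64 without PC9 erlotinib replicate 1 and -6.19 without PC9 erlotinib replicate 2. In H1650 it went from 1.3 ± 0.144 (SD, n = 2) to 0.68 ± 0.158 (SD, n = 2) with erlotinib, a change of -0.91 that was not called (SE 0.442, adjusted p = 0.111). With osimertinib it was 0.542 ± 0.43 (SD, n = 2), a fall of 1.22 on the log2 scale (SE 0.453, adjusted p = 0.0359). That call was lost without H1650 T0 replicate 1 (-1.11, adjusted p = 0.12), H1650 T0 replicate 2 (-1.34, adjusted p = 0.0579), PC9 T0 replicate 2 (-1.23, adjusted p = 0.0515) or H1650 osimertinib replicate 1 (-0.61, adjusted p = 0.396). It was also lost with DESeq2 (-1.26, adjusted p = 0.0668) and with one fit per line (-1.23, adjusted p = 0.0655), and it was -2.41 without H1650 osimertinib replicate 2.

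The difference between the lines was 4.26 for PDCD1LG2 with erlotinib (SE 0.698, adjusted p = 1.3e-05) and 2.22 with osimertinib (SE 0.635, adjusted p = 0.00569). The former was 3.73 without PC9 erlotinib replicate 1 and 5.28 without PC9 erlotinib replicate 2. The latter was lost without H1650 osimertinib replicate 2 (1.05, adjusted p = 0.402) and was 2.85 without H1650 osimertinib replicate 1. At T0 the level was lower in H1650 than in PC9 (-2.42, adjusted p = 4.9e-07). Under erlotinib it was higher in H1650 (1.84, adjusted p = 0.00949), and this was lost without PC9 erlotinib replicate 1 (1.3, adjusted p = 0.0918) or H1650 erlotinib replicate 2 (1.56, adjusted p = 0.0749) and was 2.85 without PC9 erlotinib replicate 2. Under osimertinib the difference was -0.21 (adjusted p = 0.736).

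The sequences around the start of CD274, VTCN1 and PVR are shown as a description, and any part of their motifs in the changes was not tested. The interferon regulatory factors IRF1 and IRF2, which bind the ISRE in the PD-L1 promoter, and the AP-1 subunit JUN are described below. The sequences are from RefSeq (GRCh38.p14), run 5′ to 3′ on the strand of the gene and end just after its start. Capitals mark matches to the motifs searched, which in CD274 are a pair of overlapping ISRE cores, a GAS element and a GC box, in VTCN1 an AP-1 site and in PVR a TEAD site. The AP-1 site of VTCN1 is at positions 1 to 7 from the start, so it lies after the start and not before it.
CD274, chr9:5450292-5450551, plus strand: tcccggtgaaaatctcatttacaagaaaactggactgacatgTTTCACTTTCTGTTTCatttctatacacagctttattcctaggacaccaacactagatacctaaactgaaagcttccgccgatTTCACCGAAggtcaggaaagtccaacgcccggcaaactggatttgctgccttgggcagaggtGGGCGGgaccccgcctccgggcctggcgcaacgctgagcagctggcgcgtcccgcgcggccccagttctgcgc
VTCN1, chr1:117210918-117211177, minus strand: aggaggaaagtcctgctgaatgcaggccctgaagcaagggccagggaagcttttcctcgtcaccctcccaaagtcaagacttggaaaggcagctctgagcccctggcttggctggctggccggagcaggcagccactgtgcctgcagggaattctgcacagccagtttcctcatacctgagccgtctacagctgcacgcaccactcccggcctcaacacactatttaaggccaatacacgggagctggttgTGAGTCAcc
PVR, chr19:44643660-44643919, plus strand: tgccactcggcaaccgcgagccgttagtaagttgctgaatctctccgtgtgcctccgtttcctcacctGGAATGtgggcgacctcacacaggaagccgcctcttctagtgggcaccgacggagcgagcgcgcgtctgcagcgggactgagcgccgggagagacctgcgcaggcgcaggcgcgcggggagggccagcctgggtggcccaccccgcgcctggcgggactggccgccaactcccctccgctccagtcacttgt

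The motifs were searched on both strands in windows from 250 bases before to 50 after the start, of which 13 belong to 9 of the 10 genes. The ISRE core (GAAA, 2 free bases, GAAA) was found in 3.57% of 35116 promoters, the AP-1 site TGANTCA in 7.71%, the GAS element TTCNNNGAA in 7.66%, the TEAD site GGAATG in 14% and the GC box GGGCGG in 45.0%. The E-box CACGTG (7.26%), the FOXO site GTAAACA (3.42%) and the CRE TGACGTCA (1.85%) were in none of the 13 windows. The ISRE cores of CD274 span positions -208 to -193 from the start, with the reverse complement of the motif on the strand shown. HHLA2, which had almost no reads, also has an ISRE core in 1 window and an AP-1 site in another, and GC boxes were found for CD47, CD276, CD274 and ICOSLG. A match describes letters in a window and is not a measurement of binding.

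CD276 (B7-H3, a B7 protein abundant on many carcinomas) was highly expressed in both lines, and fell with erlotinib but was not called with osimertinib. It lies on chromosome 15, 73683966 to 73714518, plus strand. PC9 had 1804 and 1874 reads at T0, 1536 and 1653 after erlotinib, and 1926 and 1647 after osimertinib. H1650 had 3816 and 4332 at T0, 2553 and 2859 after erlotinib, and 3856 and 3701 after osimertinib. After scaling, both erlotinib groups lay below T0 of the same line, and the osimertinib groups overlapped T0.

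The level of CD276 in PC9 was 91.7 ± 1.1 CPM (SD, n = 2) at T0, 66.7 ± 3.01 (SD, n = 2) with erlotinib and 90.7 ± 2.31 (SD, n = 2) with osimertinib. In H1650 it was 173 ± 7.66 (SD, n = 2), 132 ± 0.971 (SD, n = 2) and 174 ± 13.6 (SD, n = 2). The fall with erlotinib was 0.46 in PC9 (log2 fold change -0.46, SE 0.0772, adjusted p = 7.9e-06) and 0.38 in H1650 (log2 fold change -0.38, SE 0.0742, adjusted p = 1.6e-04). With osimertinib the log2 fold changes were -0.02 in PC9 (adjusted p = 0.88, 95% interval -0.17 to 0.14) and 0.02 in H1650 (adjusted p = 0.911, 95% interval -0.14 to 0.17). Osimertinib and erlotinib differed in both lines, by 0.44 in PC9 (adjusted p = 1.2e-04) and 0.40 in H1650 (adjusted p = 5.6e-04). The difference between the lines in the response was 0.08 for erlotinib (adjusted p = 0.611) and 0.03 for osimertinib (adjusted p = 0.864). CD276 was higher in H1650 than in PC9 at T0, by 0.91 (adjusted p = 1.8e-11).

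ICOSLG (the ligand of the co-stimulatory receptor ICOS) was scarce. It had 14 to 30 reads in each PC9 library and 1 to 5 in each H1650 library, and no drug comparison called it. ICOSLG passed the filter on low counts through its PC9 libraries alone, which favours a lower level in H1650. The differences between the lines are therefore given as a description without p-values. At T0 the level was 0.105 CPM in H1650 against 1.10 in PC9 (log2 difference -3.31). The difference was -2.93 under osimertinib and -2.14 under erlotinib, and the latter was -1.72 without PC9 erlotinib replicate 1. Under osimertinib the size rested on few H1650 reads, at -4.46 without H1650 osimertinib replicate 1 and -2.18 without H1650 osimertinib replicate 2. The reference holds a second gene with a near-identical sequence, LOC102723996, on the same chromosome (chromosome 21, 5022531 to 5046683), while ICOSLG lies at 44217014 to 44240966. The counting could have split reads between them, so the ICOSLG level is uncertain. CD80 had 0 reads in 10 libraries and 1 in each of 2, CD86 had 2 reads in 1 library only, and HHLA2 had 2 and 1 reads in 2 libraries and none elsewhere. A library with 0 reads allows a level of up to 0.116 to 0.168 CPM, the worth of 3 reads, so the 3 genes were at or under what these depths can show.

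CD47, the signal that restrains phagocytosis, rose with osimertinib in both lines and was not called with erlotinib. It lies on chromosome 3, 108043094 to 108091862, minus strand. PC9 had 1429 and 1541 reads at T0, 1805 and 2121 after erlotinib, and 2389 and 1883 after osimertinib. H1650 had 1761 and 2233 at T0, 1669 and 1803 after erlotinib, and 2097 and 2256 after osimertinib. In CPM the osimertinib libraries lay above the other libraries of their line.

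The level of CD47 in PC9 was 74.1 ± 2.84 CPM (SD, n = 2) at T0, 81.8 ± 1.39 (SD, n = 2) with erlotinib and 108 ± 3.47 (SD, n = 2) with osimertinib. In H1650 it was 84.1 ± 2.84 (SD, n = 2), 85.0 ± 1.54 (SD, n = 2) and 100.3 ± 0.276 (SD, n = 2). It rose with osimertinib by 0.54 in PC9 (SE 0.0743, adjusted p = 2.9e-07) and by 0.25 in H1650 (SE 0.0733, adjusted p = 0.00754). The H1650 rise was lost without H1650 T0 replicate 1 (0.22, adjusted p = 0.0918) or H1650 osimertinib replicate 2 (0.25, adjusted p = 0.0504). With erlotinib the log2 fold change was 0.14 in PC9 (adjusted p = 0.0951) and was called with upper quartile scaling (0.23, adjusted p = 0.00608), a minimum of 10 counts per library (0.19, adjusted p = 0.0149) or a replicate block (0.14, adjusted p = 0.0412). It was 0.01 in H1650 (adjusted p = 0.918).

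The rise of CD47 with osimertinib was smaller in H1650 by 0.29 (difference -0.29, SE 0.104, adjusted p = 0.0249). This call was lost without PC9 T0 replicate 1 (-0.25, adjusted p = 0.128), PC9 osimertinib replicate 1 (-0.26, adjusted p = 0.0944), H1650 osimertinib replicate 1 (-0.27, adjusted p = 0.091), H1650 osimertinib replicate 2 (-0.28, adjusted p = 0.0824) or H1650 T0 replicate 2 (-0.25, adjusted p = 0.114), and with no filter (-0.22, adjusted p = 0.234). CD47 was higher in H1650 at T0 by 0.18 (adjusted p = 0.0293), a call that was lost without any 1 of 8 libraries (those at T0 in either line and the treated ones of H1650), with adjusted p from 0.051 to 0.214, and with no filter (0.271), DESeq2 (0.07) or RLE scaling (0.0607). Osimertinib against erlotinib was 0.40 in PC9 (adjusted p = 2.2e-04) and 0.24 in H1650 (adjusted p = 0.0405). The latter was lost without any 1 of the same 8 libraries, with adjusted p from 0.0501 to 0.193, and with no filter (0.0543).

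PVR, which per kilobase had the highest level of the 10 genes at T0 in both lines, fell with both drugs in both. It lies on chromosome 19, 44643798 to 44663583, plus strand, and shares 121 exonic bases with CEACAM19 on the same strand, a gene with at most 305 reads in any library. PC9 had 2843 and 2860 reads at T0, 2773 and 3098 after erlotinib, and 1722 and 1340 after osimertinib. H1650 had 8308 and 9634 at T0, 3569 and 4394 after erlotinib, and 3743 and 3825 after osimertinib. In CPM no pair of groups overlapped, and T0 was the highest group in each line.

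PVR was at 142 ± 1.52 CPM (SD, n = 2) in PC9 at T0, 123 ± 2.3 (SD, n = 2) with erlotinib and 77.4 ± 3.19 (SD, n = 2) with osimertinib. It was at 380 ± 11.2 (SD, n = 2), 194 ± 14.4 (SD, n = 2) and 175 ± 5.86 (SD, n = 2) in H1650. The log2 fold changes were -0.21 with erlotinib (SE 0.0728, adjusted p = 0.0122) and -0.88 with osimertinib (SE 0.0747, adjusted p = 3.9e-11) in PC9, and -0.97 (SE 0.0715, adjusted p = 2.1e-11) and -1.12 (SE 0.0718, adjusted p = 1.4e-12) in H1650. The PC9 fall with erlotinib was lost without PC9 T0 replicate 1 (-0.21, adjusted p = 0.0637) or PC9 erlotinib replicate 2 (-0.20, adjusted p = 0.0692), and with upper quartile scaling (-0.12, adjusted p = 0.119). It was smaller than the fall in H1650, with a difference of -0.75 (SE 0.102, adjusted p = 6.7e-07). For osimertinib the difference was -0.24 (adjusted p = 0.059), and it was called with upper quartile scaling (-0.30, adjusted p = 0.0146), a minimum of 10 counts per library (-0.27, adjusted p = 0.0218) or a replicate block (-0.24, adjusted p = 0.0205). In PC9, PVR was lower with osimertinib than with erlotinib by 0.66 (log2 difference -0.66, adjusted p = 1.7e-07). In H1650 this difference was -0.16 (adjusted p = 0.201). PVR was higher in H1650 than in PC9 at T0, with a 95% interval of 1.27 to 1.57 for the log2 difference (adjusted p = 5.2e-16), and by 0.67 under erlotinib and 1.17 under osimertinib.

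**Figure D2:**
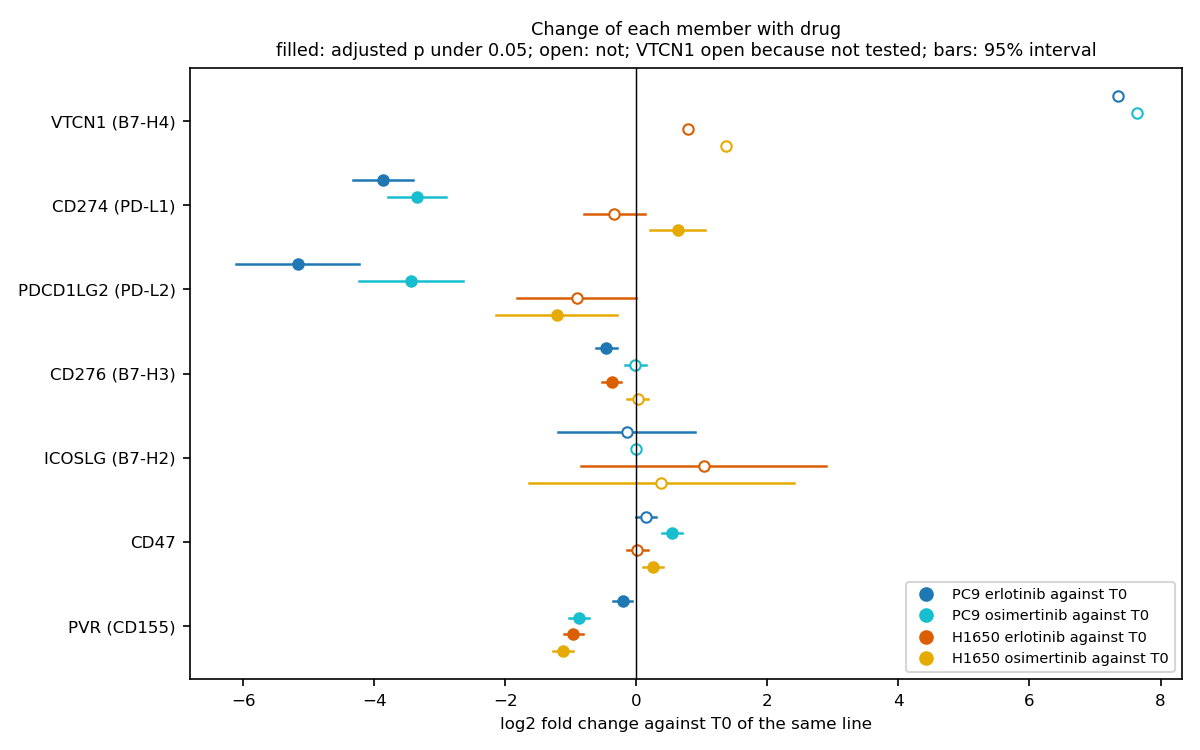
Log2 fold change against T0 of the same line (x axis) for the 7 tested genes (y axis) with each drug in each line. Filled points were called at an adjusted p under 0.05, and bars are 95% intervals. VTCN1 has no bar because it was not tested. ICOSLG has none with osimertinib in PC9, where its change was 0 and the SE derived from the test is unstable. CD274 and PDCD1LG2 fell by 3.35 to 5.17 in PC9, and PVR fell in all 4 comparisons.

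Because the 2 drug comparisons in a line share their T0 libraries, they are set side by side and not correlated. The counts below leave out VTCN1 where its levels chose the set, and cover the 6 tested genes of the other 9. With erlotinib in PC9, 4 fell (CD274, PDCD1LG2, CD276 and PVR) and 0 rose, against 29.1% and 32.7% of the 19108 genes tested in each direction. With osimertinib in PC9, 3 fell (CD274, PDCD1LG2 and PVR) and 1 rose (CD47), against 28.7% and 32.7%. With erlotinib in H1650, 2 fell (CD276 and PVR) and 0 rose, against 18.5% and 18.0%. With osimertinib in H1650, 2 fell (PDCD1LG2 and PVR) and 2 rose (CD274 and CD47), against 17.9% and 17.8%. The median log2 fold changes of the 6 were -0.34, -0.45, -0.36 and 0.13 in this order, and those of all genes tested were 0.074, 0.064, 0.005 and 0.

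The response to drug differed between the lines for 3 of the 6 with erlotinib (CD274, PDCD1LG2 and PVR), against 40.8% of all genes, and for 3 with osimertinib (CD274, PDCD1LG2 and CD47), against 41.9%. ICOSLG passed the filter on low counts through PC9 alone, so it is left out of the levels compared between the lines. At T0 CD276, CD47 and PVR were higher in H1650 and CD274 and PDCD1LG2 lower, against 35.8% of all genes higher and 33.8% lower. Under erlotinib CD274, PDCD1LG2, CD276 and PVR differed and CD47 was not called, against 72.1% of all genes. Under osimertinib CD274, CD276 and PVR differed and PDCD1LG2 and CD47 were not called, against 71.6%. Osimertinib and erlotinib were given at different doses. Among the 6, ICOSLG included, they differed in PC9 for CD276 and CD47 (higher with osimertinib) and PVR (lower), against 16.6% of all genes. In H1650 they differed for CD274, CD276 and CD47, all higher with osimertinib, against 8.75%. VTCN1 is left out here because its treated libraries also served in the choice of the set.

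**Figure D3:**
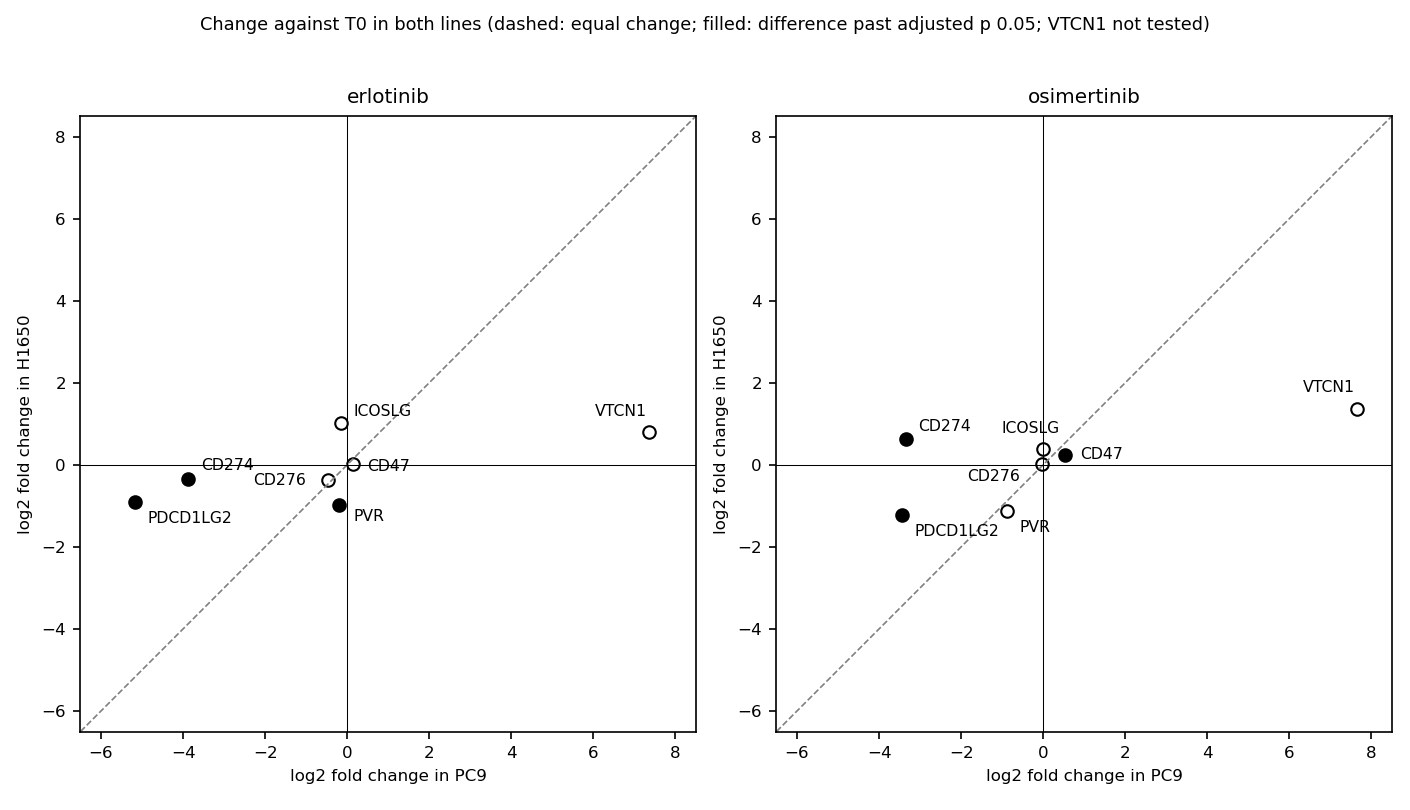
Log2 fold change against T0 in PC9 (x axis) and H1650 (y axis) for erlotinib (left) and osimertinib (right), 1 point for each of the 7 tested genes. The dashed line marks equal change in both lines, filled points had a difference between the lines with an adjusted p under 0.05, and VTCN1, at 7.35 and 0.79 with erlotinib, was not tested.

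Per kilobase of gene length, the ranking of the ligands within a line changed with treatment. In PC9 at T0 the order was PVR (23.3 CPM per kb), CD276 (16.7), CD47 (9.0), CD274 (4.10), PDCD1LG2 (2.86), ICOSLG (0.118) and VTCN1 (0.0984). With osimertinib in PC9 it was VTCN1 (20.1), CD276 (16.5), CD47 (13.1), PVR (12.7), CD274 (0.404), PDCD1LG2 (0.264) and ICOSLG (0.116). With erlotinib VTCN1 (16.4) was second to PVR (20.1). The VTCN1 and ICOSLG libraries overlapped in PC9 at T0. In H1650 at T0 PVR (62.3 CPM per kb) and CD276 (31.5) led, followed by CD47 (10.2), VTCN1 (9.87) and CD274 (0.851). With osimertinib in H1650 CD276 (31.8), PVR (28.6) and VTCN1 (25.3) led. The PVR length in the table is 6098 bases, and its exons in GENCODE 29 cover 3519, so its place in these orders depends on the annotation.

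Other genes of the same pathways, 84 genes in 7 lists of which 63 were tested, were counted in the same 4 comparisons (erlotinib and osimertinib in PC9, then in H1650). Of all 19108 genes tested, 32.7%, 32.7%, 18.0% and 17.8% rose and 29.1%, 28.7%, 18.5% and 17.9% fell in this order. The counts of each list below are to be read beside these shares, and no list was tested as a set. Of 11 tested genes among other inhibitory or adhesion ligands, 7, 8, 5 and 6 rose and 1, 1, 2 and 3 fell. LGALS9, which encodes galectin-9, a ligand of TIM-3, rose in all 4, from 1.82 ± 0.345 CPM (SD, n = 2) to 16.4 ± 1.26 (SD, n = 2) with osimertinib in PC9, and by 1.83, 3.16, 2.31 and 2.79 on the log2 scale. CD24, a ligand of the macrophage receptor SIGLEC10, rose in PC9 by 2.56 and 3.44, fell by 0.52 with erlotinib in H1650 (log2 fold change -0.52) and rose by 0.48 with osimertinib. CEACAM1, an adhesion protein that also binds TIM-3, was scarce in PC9. The summed reads of its PC9 groups were 34 at T0, 4 after erlotinib and 24 after osimertinib. It fell there with erlotinib (log2 fold change -3.26), a size that rests on those 4 reads. With osimertinib it was at -0.48, which was not called. In H1650 CEACAM1 rose by 1.72 and 1.58.

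All 3 BTN3A genes, which encode butyrophilins that take part in the activation of gamma delta T cells, rose in each of the 4 comparisons, and they are close paralogs whose reads may be shared. BTN3A3 rose by 2.02, 2.60, 1.15 and 1.96, BTN3A1 by 1.72, 1.98, 1.31 and 1.75, and BTN3A2 by 1.29, 1.58, 0.98 and 1.55. Of 7 tested butyrophilins, 5, 6, 4 and 3 rose and 0, 0, 1 and 1 fell.

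Of 8 ligands of NKG2D, an activating receptor of NK cells, 4 fell in each comparison, while 1, 0, 1 and 0 rose. Where every library had to hold 10 counts or more, ULBP1, ULBP2, RAET1E, RAET1G and RAET1L were untested and 2 genes were called in each comparison. In H1650 with erlotinib 3 were called at an adjusted p under 0.01, and fewer than in the main fit without H1650 erlotinib replicate 2. ULBP2 fell in all 4, with log2 fold changes of -2.22, -3.14, -1.25 and -0.92, and RAET1L with -1.78, -3.38, -0.78 and -1.23. ULBP1 was the one riser, by 3.23 in PC9 and 1.94 in H1650 with erlotinib, and was at -0.34 and -0.03 with osimertinib. ULBP2 and RAET1L are members of one family of similar genes, so reads may be split between them.

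The 5 tested co-stimulatory ligands of the TNF family and others showed 2, 1, 2 and 3 that rose and 3, 2, 0 and 0 that fell. The 3 called with osimertinib in H1650 were 0 without H1650 T0 replicate 2 and 1 without H1650 T0 replicate 1, with DESeq2 or at an adjusted p under 0.01. The 2 called with erlotinib there were 1 at 0.01 or with a minimum of 10 counts per library, which left TNFSF4 untested. They were also fewer without H1650 erlotinib replicate 1 or H1650 T0 replicate 2. TNFSF4 (OX40L) rose in all 4 from low levels, by 3.02, 2.29, 2.38 and 2.22. It passed the filter on low counts through treated libraries, which favours a rise. TNFSF15 rose by 0.77 in PC9 with erlotinib, by 1.14 and 0.77 in H1650, and was at 0.59 in PC9 with osimertinib, which was not called. TNFSF9 (4-1BBL) fell in PC9 (log2 fold changes -1.04 and -0.73) and was at 0.73 and 0.39 in H1650, which were not called. Of 15 checkpoint receptors, 5 were tested, with 1, 1, 0 and 0 that rose and 1, 2, 1 and 1 that fell. In PC9 the 2 called with erlotinib were fewer without PC9 erlotinib replicate 2. With a minimum of 10 counts per library CD160, SIRPG and CD226 were untested, and 1 gene was called with each drug in PC9. The 1 called with erlotinib in H1650 was lost at 0.01 and without either H1650 erlotinib library or H1650 T0 replicate 2. SIRPA, the receptor of CD47, fell in PC9 (-1.26 and -1.28) and in H1650 with osimertinib (-0.84). CD160 was higher in treated PC9 than at T0 (log2 fold changes 2.31 and 2.94), where it was at 0.125 CPM. SIRPG was lower in PC9 with osimertinib (-1.84) and had no reads in H1650. CD160 passed the filter on low counts through treated PC9 libraries and SIRPG through PC9 at T0, which favours these directions. Their values are a description, although their calls are in the counts above.

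Among 21 genes known to regulate PD-L1 or CD47, 6, 6, 3 and 5 rose and 5, 6, 7 and 5 fell. The part of any of these genes in the levels of CD274 or CD47 was not tested. IRF1, a transcription factor of the interferon response that activates the PD-L1 promoter, rose in all 4 comparisons, by 1.87, 2.22, 0.81 and 1.18. Its level in PC9 went from 7.49 ± 0.676 CPM (SD, n = 2) at T0 to 27.4 ± 1.29 (SD, n = 2) with erlotinib and 35.0 ± 2.49 (SD, n = 2) with osimertinib. IRF2 rose by 0.78, 0.99, 1.00 and 0.96. JUN fell with erlotinib in PC9 (-0.58) and with both drugs in H1650 (-1.78 and -1.13) and was at 0.19 with osimertinib in PC9, which was not called.

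Of 7 tested neighbours of CD274 in 9p24.1, 2, 3, 1 and 1 rose and 1, 2, 1 and 1 fell. The 2 called with osimertinib in H1650 were 1 with DESeq2, upper quartile scaling, no filter, an adjusted p under 0.01, or without any 1 of the T0 and osimertinib libraries of H1650. PLGRKT, which encodes a plasminogen receptor and lies next to CD274, fell in PC9 (-1.65 and -1.93) and was at 0.09 and 0.02 in H1650, which were not called. The difference between the lines was 1.74 with erlotinib (SE 0.219, adjusted p = 2.0e-07) and 1.94 with osimertinib (SE 0.226, adjusted p = 4.5e-08). ERMP1, an endoplasmic reticulum peptidase gene further along the band, rose in all 4 by 1.16, 0.65, 0.56 and 0.29. MLANA was not called in any of them.

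**Figure D4:**
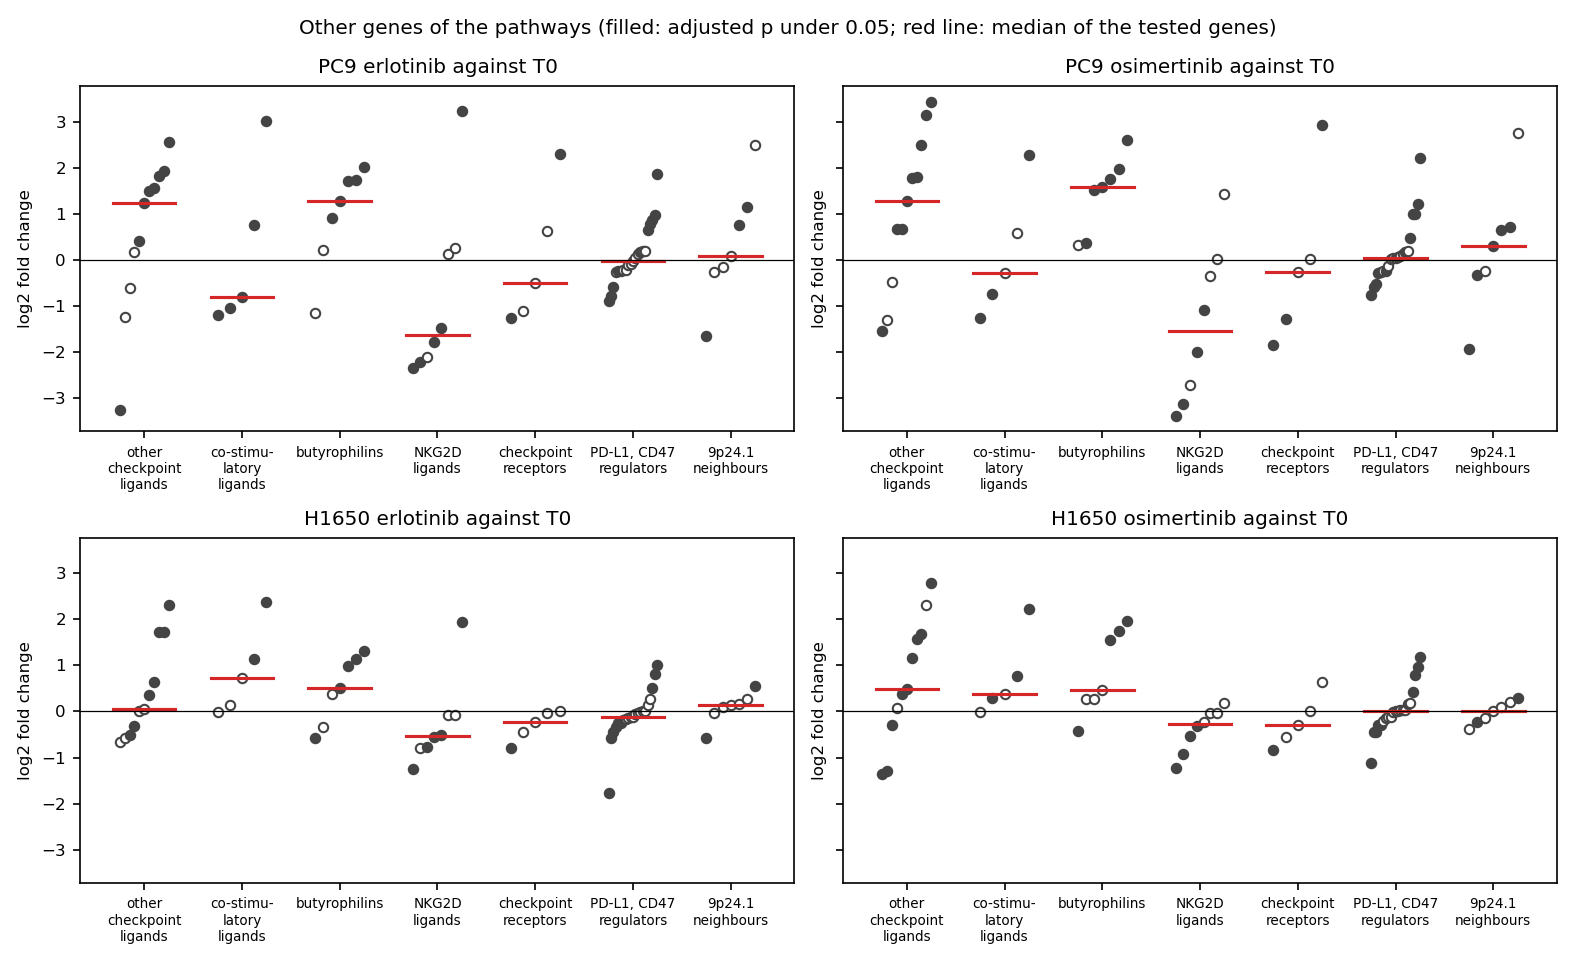
Log2 fold change against T0 (y axis) of the tested genes of 7 lists (x axis) in the 4 drug comparisons. Filled points had an adjusted p under 0.05, and the red line is the median of the tested genes of a list, which for other checkpoint ligands was 1.23 (erlotinib) and 1.29 (osimertinib) in PC9 against 0.05 and 0.48 in H1650.

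The genes most like CD274 over the 12 libraries were HK1, BUD13, YBX1, XPO1 and MSH6, with Pearson correlations from 0.963 to 0.973 among 10294 genes, and BUD13 was also among the 5 closest by rank. HK1, the glycolytic hexokinase, was at 333 ± 14 CPM (SD, n = 2) in PC9 at T0, 162 ± 2.97 (SD, n = 2) with erlotinib and 160.5 ± 4.33 (SD, n = 2) with osimertinib, and between 208 and 225 in H1650. As for VTCN1, these correlations are a description over libraries that share depth and groups. PC9 at T0 was the highest group for CD274 and for each of the genes listed with it.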

How the data were processed

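The authors ran the DolphinNext pipeline on the reads and deposited a table of whole-number counts per gene, made with featureCounts and not normalized. The submitters' notes name GRCh38 and DESeq2. The aligner, annotation version and strand setting are not given in the sources used here. Libraries held 17961765 to 26346187 counts.

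Counts were analysed with edgeR 4.0.16 in R 4.3.3. A filter by group kept 19108 of 60591 genes. Counts were scaled by TMM (factors 0.941 to 1.08), and a quasi-likelihood model of the 6 groups was fitted to all 12 libraries (6 residual and 20.7 prior degrees of freedom). P-values were adjusted over all genes tested by Benjamini-Hochberg. The code was run on simulated counts with changes in the PC9 erlotinib group only. That setting is simpler than the data, so it gives no error rate for them. DESeq2 1.42.0, other scalings and filters, a stricter threshold, a fit per line, a replicate block and each library left out in turn were alternatives. The members and lists were chosen with earlier results of these data known. The genes named are the 10 members and the 3 of each list with the largest mean absolute change over the 4 drug comparisons. Replicates differed beyond sampling noise (chi-square per gene 4.63 to 8.56). Genes most like VTCN1 and CD274 were the 5 with the highest Pearson correlation to each, and 1 of them is not reported here.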

Additional observations from a re-analysis of the deposited data

Results flagged for a closer look

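Changes with drug that differed between the lines, by the test of the difference itself (the log2 fold change of H1650 less that of PC9, in the quasi-likelihood fit of edgeR), were found for 3 of 6 tested members with erlotinib and 3 with osimertinib, 4 genes in all, against 40.8% and 41.9% of all genes tested. For CD274 the difference was 3.53 with erlotinib and 3.97 with osimertinib on the log2 scale. For PDCD1LG2 it was 4.26 with erlotinib and 2.22 with osimertinib, and the latter was 1.05 (adjusted p = 0.402) without H1650 osimertinib replicate 2. For PVR it was -0.75 with erlotinib. For CD47 it was -0.29 with osimertinib, and leaving out any 1 of 5 libraries ended this call.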

How the results depend on the processing

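Over the alternatives, 1361 values of single members stayed the same, 58 lost the call, 12 gained it and 24 changed sign. The same means an unchanged direction and side of the threshold. For VTCN1 against T0 or between the lines, it means a log2 fold change within its standard error of the main value, and 11 such values moved further. VTCN1 between the drugs, described above without p-values, is counted here by its call. The number of members called for osimertinib in H1650 was 4, but 2 with DESeq2 and 2 at an adjusted p under 0.01, and 1 to 4 when a library was left out (1 without H1650 T0 replicate 1, 2 without H1650 osimertinib replicate 1). Between the lines under erlotinib it was 5 with ICOSLG counted. It was 3 where every library had to hold 10 counts or more, a filter that left PDCD1LG2 and ICOSLG untested. It was lower than 5 without PC9 erlotinib replicate 1, where the log2 difference was 1.3 for PDCD1LG2 and -1.72 for ICOSLG. For osimertinib against erlotinib in H1650 it was 4 with VTCN1 counted, and lower without H1650 erlotinib replicate 1 or H1650 osimertinib replicate 1. For the osimertinib response difference it was 3, and lower without H1650 osimertinib replicate 2. A left-out library leaves its group with a lone sample, which is assumed to vary like the others.

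The sign changes were in values near 0 or resting on few reads. CD47 with erlotinib in H1650 (0.01) was -0.01 with DESeq2, RLE scaling or no filter. CD276 with osimertinib in PC9 (-0.02) was 0.06 with upper quartile scaling and 0.03 with the stricter filter, and its osimertinib response difference (0.03) was -0.02 with upper quartile scaling. Between the lines under erlotinib, VTCN1 (0.05) and CD47 (0.06) were each -0.02 with upper quartile scaling. With a library left out, the ranges were -0.02 to 0.05 for CD47 with erlotinib in H1650, -0.05 to 0.01 for CD276 with osimertinib in PC9, -0.06 to 0.09 for CD276 with osimertinib in H1650, -0.03 to 0.12 for its osimertinib response difference and -0.05 to 0.15 for VTCN1 between the lines under erlotinib. PDCD1LG2 ranged from -1.49 to 0.31 for osimertinib against erlotinib in H1650 and from -1.40 to 0.41 between the lines under osimertinib. ICOSLG ranged from -0.56 to 0.19 with erlotinib in PC9, -1.14 to 1.14 with osimertinib in H1650, -1.13 to 1.15 for its osimertinib response difference, -0.33 to 0.56 for osimertinib against erlotinib in PC9 and -2.17 to 0.11 in H1650. The cause was not tested.

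Over all genes, osimertinib against erlotinib called 3163 genes in PC9 and 1930 at an adjusted p under 0.01. In H1650 it called 1672, and 912 at that threshold, 2670 with a replicate block and 782 without H1650 osimertinib replicate 1. The labels number the replicates 1 and 2 in each group, but nothing says that a number marks a shared culture or day, and there are only 2 pairs in a comparison. Deviations of same-numbered libraries correlated by 0.00857 to 0.486 over 15 pairs of groups. With the replicate block the calls of CD47 with erlotinib in PC9 (0.14, adjusted p = 0.0412), PVR in the osimertinib response difference (-0.24, adjusted p = 0.0205) and PDCD1LG2 for osimertinib against erlotinib in PC9 (1.76, adjusted p = 0.0342) were gained. The first 2 were also gained with upper quartile scaling (0.23 and -0.30) and with the stricter filter (0.19 and -0.27), and the PDCD1LG2 one with no filter (1.71, adjusted p = 0.0357), one fit per line (1.71, adjusted p = 0.0328) or without H1650 osimertinib replicate 1, H1650 osimertinib replicate 2 or PC9 erlotinib replicate 2 (1.74 to 2.75). One fit per line gives no value for a comparison between lines. The fewest reads, and so the least certain values, are those of ICOSLG, of PDCD1LG2 after treatment and of VTCN1 in PC9 at T0.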
